A study of Mus musculus with 8 samples.

Results

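The 10 genes described here encode transcription factors of the subpallium, the ventral part of the embryonic telencephalon from which the GABAergic neurons of the striatum, the pallidum and the cortex descend. They are Dlx1, Dlx2, Dlx5, Dlx6, Lhx6, Nkx2-1, Isl1, Six3, Sp9 and Meis2. The genes were taken from a list of names, drawn up when earlier results of these data were known, and all 10 had a row among the 14353 genes with values. Their mRNA was measured in the ventral pallidum (VP), a basal forebrain nucleus of mostly GABAergic neurons with cholinergic and glutamatergic neurons among them.

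The mice carried VGluT2-Cre (homozygous) and the RiboTag allele of Rpl22 (heterozygous), received no treatment and were 9 to 12 weeks old in pool VP1.6 and 10 to 16 weeks old in the other pools, VP2.2, VP2.6, VP2.11. Cre under the control of the gene for vGluT2 puts a hemagglutinin tag on a ribosomal protein of the cells that express it, so that an antibody collects ribosomes and their mRNA from glutamatergic VP (VP_Glu) neurons; cells that expressed Cre only earlier in life carry the tag too. Each of the 4 pools held VP tissue of 7 to 11 male and female mice (38 mice over the pools) and gave 1 library of pulled-down mRNA (TRAP) and 1 library of the lysate of the same tissue (INPUT), so that both fractions come from mice of the same genotype and n = 4 libraries per fraction. The labels describe INPUT as all neurons and glia, whereas the methods speak of an unbound fraction at the sequencing step. The methods also state that tissue of the neighboring striatum and nucleus accumbens may have entered the punches. They add that these areas lack vGluT2, so that such tissue would not reach the pulled-down mRNA.

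Subpallial neurons arise in the ganglionic eminences, and a cascade of transcription factors turns their progenitors into GABAergic cells. Dlx genes act in all eminences and drive the genes for GABA synthesis. Nkx2-1, whose target is Lhx6, specifies the medial eminence, which gives rise to pallidal neurons and cortical interneurons. Isl1, Six3, Sp9 and Meis2 act in the lateral eminence, which gives rise to striatal projection neurons. Several of these genes stay active in the adult forebrain. Glutamatergic neurons of the cortex descend instead from the pallium, under factors such as Tbr1, Emx1 and Neurod6.

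All 10 factors had a lower mean level in TRAP than in INPUT. Levels are given in CPM, the reads of a gene scaled to a fixed library total, and always in the pool order VP1.6, then VP2.2, then VP2.6, then VP2.11. A gene was called changed at a Benjamini-Hochberg adjusted p under 0.05 in limma, over 14249 genes. With the fraction alone in the fit, 8 of the 10 factors were called lower in TRAP and 0 higher, where 24.8% of all genes tested were called lower. With the pool as a block, 7 were called lower and 0 higher, where 16.8% of all genes were called lower. The median log2 fold change of the 10 factors, TRAP minus INPUT, was -1.72, against -0.05 for all genes tested. Dlx1, Dlx5, Dlx6, Lhx6, Isl1, Six3 and Meis2 were called in both fits, Nkx2-1 was called with the fraction alone, and Dlx2 and Sp9 were called in neither. In bulk tissue, fewer cells of a type and less RNA per cell cannot be told apart.

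**Figure D1:**
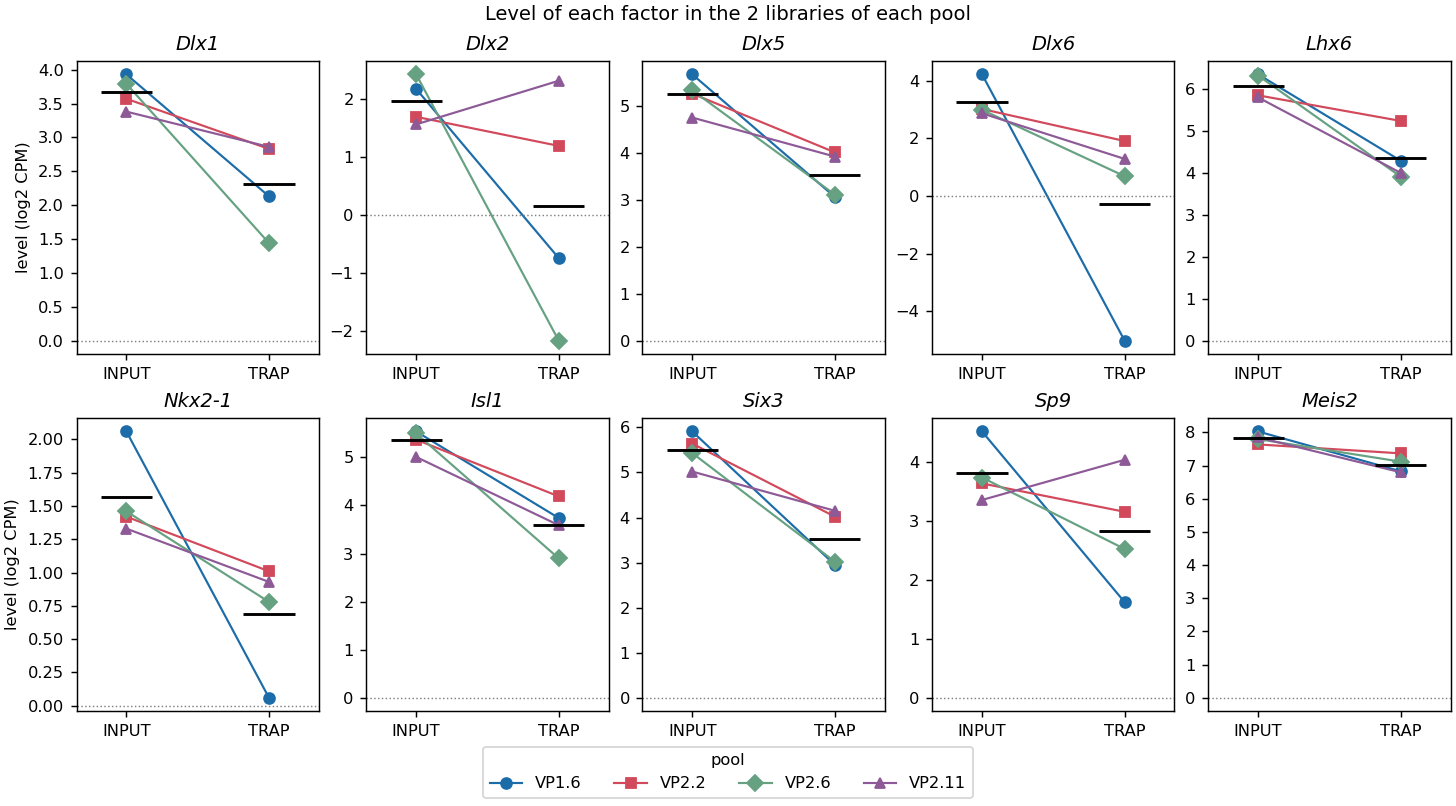
Level (y axis, log2 CPM, a separate scale in each panel) of each of the 10 factors in INPUT and TRAP; each line joins the 2 libraries of 1 pool and black bars mark the means of 4 libraries. Lines fall in all 4 pools for 8 of the factors, while Dlx2 and Sp9 rise in VP2.11, and Dlx6 in TRAP VP1.6 stands far below its other values.

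A property of the deposited values bears on every test below. For 14352 of 14353 genes (99.99%), the intervals spanned by TRAP and INPUT within the 4 pools all contained 1 common level, within a tolerance of 0.011 log2, whereas the share was 48.45% when TRAP was set beside the INPUT of another pool. A gene that was lower in TRAP in all 4 pools therefore also had TRAP and INPUT values without overlap, and the same 3471 genes, 24.4% of those tested, met both descriptions. The exact two-sided permutation test of 4 against 4 libraries, whose smallest p is 0.029, thus adds nothing to the signs within pools, and 8 of the 10 factors reached that p because they were lower in 4 of 4 pools. The fit with the fraction alone does not take up the pairing and may call too many genes, so its calls are less firm than those of the fit with the block. Each SE printed below with a log2 fold change comes from the fit with the fraction alone, in which each gene's variance is drawn toward that of other genes. It is not the SE of the differences within pools. How the values came to have this property was not tested.

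As a check of the fractions, Slc17a6, which encodes vGluT2, was called higher in TRAP in both fits, at 143 against 25.9 CPM. Most markers of glia and of striatal medium spiny neurons fell in TRAP. The 5 oligodendrocyte markers summed to 900.1 to 1631 CPM in TRAP and 3506 to 3807 CPM in INPUT (4 of 5 called lower in both fits, Mag higher with the fraction alone), the 5 astrocyte markers to 150 to 253 and 343 to 502 CPM (4 of 5 in both fits), and the 5 microglia markers to 22.7 to 31.5 and 79.8 to 126 CPM (5 of 5 with the fraction alone, 4 with the block). The 8 markers of striatal medium spiny neurons summed to 506 to 804 CPM in TRAP and 1276 to 1957 CPM in INPUT, with 7 of 8 called lower in both fits. Tmem119, a microglia marker with a mean of 0.171 CPM in TRAP, was the only marker of these 4 lists under 1 CPM in a TRAP library. These markers moved in the direction of the 10 factors, and their part in the results below was not tested. The 5 pan-neuronal markers rose (5 of 5, and 4 with the block), while among 5 cholinergic markers 1 was called higher and 1 lower (0 and 1 with the block), summing to 95.1 to 144 CPM in TRAP and 43.5 to 89.0 CPM in INPUT. Of 5 endothelial markers, 3 had a row, of which 1 was called higher (2 with the block). They summed to 10.3 to 53.1 CPM in TRAP and 3.005 to 10.97 CPM in INPUT.

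The Dlx genes lie in 2 pairs, Dlx1 with Dlx2 on chromosome 2 and Dlx5 with Dlx6 on chromosome 6. In each pair the genes point toward each other and share enhancers in the space between them. Each encodes a homeodomain that binds DNA, and the coding stretches for these homeodomains are shown because near-identical stretches could make short reads hard to assign. The sequences were read from GENCODE M21 transcripts (GRCm38), on the strand of each gene, each spanning 2 exons; coordinates include the intron, and capitals mark the bases that the 4 genes do not all share.
Dlx1, chr2:71531025-71532311, plus strand: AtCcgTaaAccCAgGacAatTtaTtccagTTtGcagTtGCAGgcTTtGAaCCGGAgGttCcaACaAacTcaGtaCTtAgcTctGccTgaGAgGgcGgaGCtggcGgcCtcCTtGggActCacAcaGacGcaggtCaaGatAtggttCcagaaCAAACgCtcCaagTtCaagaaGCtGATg
Dlx2, chr2:71544877-71545515, minus strand: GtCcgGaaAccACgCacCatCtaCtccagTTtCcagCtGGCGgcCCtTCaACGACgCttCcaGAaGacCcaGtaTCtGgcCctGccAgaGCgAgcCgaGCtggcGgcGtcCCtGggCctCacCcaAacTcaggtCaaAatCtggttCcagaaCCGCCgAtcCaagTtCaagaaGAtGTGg
Dlx5, chr6:6878441-6879657, minus strand: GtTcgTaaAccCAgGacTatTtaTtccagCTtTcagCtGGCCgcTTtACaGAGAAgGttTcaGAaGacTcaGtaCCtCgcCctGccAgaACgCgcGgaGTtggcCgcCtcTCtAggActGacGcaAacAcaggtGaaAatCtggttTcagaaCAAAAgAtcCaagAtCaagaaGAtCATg
Dlx6, chr6:6865140-6867088, plus strand: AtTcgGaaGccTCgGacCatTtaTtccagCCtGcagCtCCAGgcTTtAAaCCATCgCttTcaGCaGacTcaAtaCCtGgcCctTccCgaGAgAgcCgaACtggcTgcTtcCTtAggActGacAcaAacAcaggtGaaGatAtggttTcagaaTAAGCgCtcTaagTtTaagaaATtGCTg
Of the 180 bases, 106 were shared by all 4 genes, and pairs were 71.1% (Dlx2 and Dlx6) to 76.7% (Dlx1 and Dlx6) identical. The longest identical run between any 2 of these stretches was 15 bases (Dlx1 and Dlx2), shorter than the 75-base reads, and no 75-base stretch of the mRNA of one Dlx gene occurred in another. The values of the 4 Dlx genes can thus be read separately as far as the annotation goes.

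Dlx1 (ENSMUSG00000041911, chr2:71528113-71533981, GRCm38, plus strand), which acts with Dlx2 in early subpallial progenitors and persists in adult interneurons, stood at 4.39, 7.10, 2.70 and 7.26 CPM in the TRAP libraries in pool order, and at 15.2, 11.9, 13.9 and 10.4 CPM in the INPUT libraries. All 4 TRAP values were below all 4 INPUT values, and TRAP VP2.6 was the lowest. The log2 fold change was -1.35 ± 0.31 (SE, n = 4), or 2.56-fold lower, with a limma adjusted p of 0.0051, and 0.010 with the pool as a block. Without VP1.6 or VP2.6 the fit with the block no longer called it (-1.21, adjusted p 0.052, and -1.02, adjusted p 0.078, both limma). Of its 75-base stretches, 4.68% also occur on the other strand in Dlx1as, and since the strand of the counting is not given in the sources used here, reads from the 2 genes cannot be told apart there.

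Dlx2 (ENSMUSG00000023391, chr2:71543408-71546754, minus strand) is the partner of Dlx1 and an early driver of the cascade. Its levels were among the lowest of the 10, at 0.598, 2.29, 0.224 and 4.96 CPM in TRAP and 4.50, 3.22, 5.37 and 2.95 CPM in INPUT. TRAP was lower in 3 pools and higher in VP2.11, where the TRAP value lay above 3 of the 4 INPUT values, and with 2 TRAP libraries over 1 CPM Dlx2 was tested only through its INPUT values. The differences within the pools had an SD of 2.39 log2. On the log2 scale, TRAP minus INPUT was -1.81 ± 0.80 (SE, n = 4), with a limma adjusted p of 0.086, and 0.070 with the block, so Dlx2 was not called although its fold change was larger than that of Dlx1. Without VP2.11 the log2 fold change was -2.66 (limma adjusted p 0.026, and 0.017 with the block), and without VP2.6 it was -0.88 (0.35 and 0.37). With a weight for each library it was -3.05 (limma adjusted p 0.00067).

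Dlx5 (ENSMUSG00000029755, chr6:6877805-6882085, minus strand), a later Dlx gene that follows Dlx1 and Dlx2 and stays on in maturing GABAergic neurons, had TRAP levels of 8.37, 16.1, 8.62 and 15.1 CPM and INPUT levels of 50.9, 38.2, 40.3 and 26.9 CPM, in pool order. The fractions did not overlap, and TRAP was lowest in VP1.6 and VP2.6. The mean log2 difference was -1.73 ± 0.27 (SE, n = 4), or 3.31-fold lower, with a limma adjusted p of 0.00065, and 0.00081 with the block. Dlx5 was called in all 18 alternative fits, with log2 fold changes from -2.07 to -1.43.

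Dlx6 (ENSMUSG00000029754, chr6:6863334-6868568, plus strand), the neighbor of Dlx5, had TRAP levels of 0.0309, 3.75, 1.62 and 2.45 CPM and INPUT levels of 18.6, 8.11, 7.92 and 7.31 CPM. VP1.6 held both the lowest TRAP value, below which only 33 genes lay in that library, and the highest INPUT value. The differences within the pools had an SD of 3.82 log2. The log2 fold change over all pools was -3.55 ± 1.25 (SE, n = 4), with a limma adjusted p of 0.037, and 0.012 with the block. Without VP1.6 it was -1.66 and was still called (limma adjusted p 0.010, and 0.019 with the block), whereas without any one of the other pools the fit with the fraction alone did not call it (-4.37, -3.98 and -4.21, limma adjusted p 0.050, 0.084 and 0.066). Dlx6 lies inside the span of Dlx6os1, a long noncoding RNA on the opposite strand (chr6:6820189-6871592), but shared no 75-base stretch with it. Of the Dlx6 stretches, 1.9% occur on the other strand in 6 genes, Dlx6os2 among them. A further 0.422% occur on the same strand in Gm45470 or Klhl32.

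Dlx6os1, also known as Evf2, comes from the enhancer region between Dlx5 and Dlx6 and regulates both genes. It stood at 7.56, 14.3, 3.97 and 2.85 CPM in TRAP and 38.6, 30.6, 34.4 and 26.9 CPM in INPUT, a log2 fold change of -2.45 ± 0.42 (SE, n = 4; limma adjusted p 0.0011, and 0.00017 with the block). Of the 7 noncoding RNAs listed beside the 10 genes only Dlx6os1 and Six3os1 had a row, and both were called lower in both fits.

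**Figure D2:**
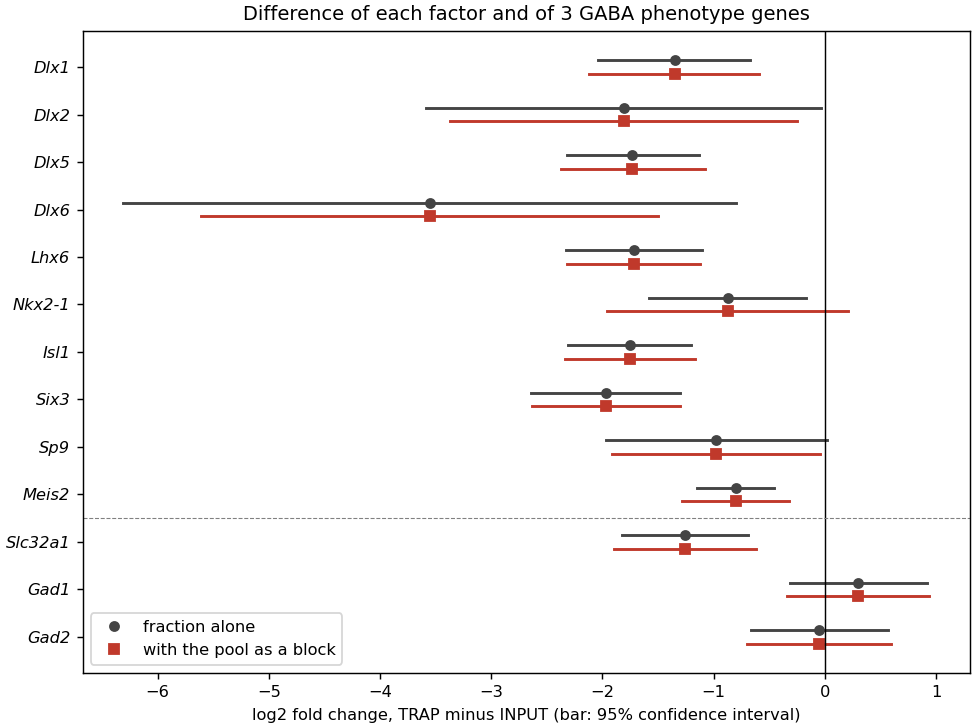
Log2 fold change (x axis, TRAP minus INPUT) of the 10 factors and, under the dashed line, of 3 genes of the GABA phenotype, with 95% confidence intervals from limma; dark circles show the fit with the fraction alone and red squares the fit that adds the pool as a block. Intervals of Dlx5, Lhx6, Isl1 and Six3 lie wholly below -1, that of Nkx2-1 reaches 0.21 with the block, and Gad1 and Gad2 lie at 0.30 and -0.05.

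Of the medial eminence genes, Lhx6 was the more clearly lower. Lhx6 (ENSMUSG00000026890, chr2:36081953-36105408, minus strand) encodes a LIM homeodomain factor required by interneurons that make parvalbumin or somatostatin, and it stood at 19.6, 37.8, 15.0 and 16.0 CPM in TRAP and 81.6, 57.5, 79.9 and 55.7 CPM in INPUT. The fractions did not overlap, and TRAP VP2.2 was the highest TRAP value. This gave a log2 fold change of -1.72 ± 0.28 (SE, n = 4), or 3.29-fold lower, with a limma adjusted p of 0.00080, and 0.00051 with the block, and it was called in all 18 alternative fits (-2.09 to -1.49).

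Nkx2-1 (ENSMUSG00000001496, chr12:56531958-56536908, minus strand), the selector gene of the medial eminence, was close to the filter on low values in TRAP, at 1.05, 2.02, 1.71 and 1.90 CPM, and stood at 4.17, 2.69, 2.75 and 2.51 CPM in INPUT. TRAP was lower in 4 of 4 pools, with a log2 difference of -2.0 in VP1.6 and of -0.69 to -0.41 in the others. Its log2 fold change was -0.87 ± 0.32 (SE, n = 4), with a limma adjusted p of 0.043 and, with the block, 0.20. Without VP1.6 it was -0.50 (limma adjusted p 0.23, and 0.59 with the block), and it was called in 6 of 18 alternative fits. Of the 75-base stretches of Nkx2-1, 1.31% also occur on the same strand in 18 other genes.

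Of the lateral eminence and striatal genes, Isl1, Six3 and Meis2 were called lower in both fits and Sp9 in neither. Isl1 (ENSMUSG00000042258, chr13:116298281-116309689, minus strand) encodes a LIM homeodomain factor of striatonigral and of cholinergic neurons. It had TRAP levels of 13.4, 18.2, 7.47 and 12.0 CPM and INPUT levels of 46.5, 41.4, 45.3 and 32.2 CPM, in pool order. The fractions did not overlap, and the highest TRAP value, in VP2.2, was 18.2 CPM against a lowest INPUT value of 32.2 CPM. The log2 fold change was -1.75 ± 0.25 (SE, n = 4), or 3.37-fold lower, with a limma adjusted p of 0.00044, and 0.00038 with the block.

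Six3 (ENSMUSG00000038805, chr17:85613608-85629302, plus strand), which encodes a homeodomain factor needed by striatopallidal neurons, had TRAP levels of 7.75, 16.2, 8.09 and 17.8 CPM and INPUT levels of 60.1, 50.0, 43.3 and 32.5 CPM. The TRAP values formed a lower pair, VP1.6 and VP2.6, and a higher pair, VP2.2 and VP2.11, and both were below INPUT. On the log2 scale, TRAP minus INPUT was -1.97 ± 0.30 (SE, n = 4), or 3.91-fold lower, with a limma adjusted p of 0.00063, and 0.00042 with the block. Isl1 and Six3 were called in all 18 alternative fits, at -2.03 to -1.47 and -2.33 to -1.64. The antisense RNA Six3os1 (chr17:85600651-85618398), which overlaps the start of Six3 and shares 75-base stretches with it on the other strand, was lower too, with a log2 fold change of -2.85 (limma adjusted p 0.00013, and 0.00026 with the block) from 1.48 CPM in TRAP to 10.2 CPM in INPUT.

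Sp9 (ENSMUSG00000068859, chr2:73271925-73284706, plus strand) encodes a zinc finger factor that also acts in striatopallidal neurons. Its levels were 3.07, 8.89, 5.73 and 16.3 CPM in TRAP and 22.8, 12.4, 13.3 and 10.2 CPM in INPUT. As for Dlx2, TRAP was lower in 3 pools and higher in VP2.11, and the fractions overlapped. The mean log2 difference was -0.98 ± 0.45 (SE, n = 4), with a limma adjusted p of 0.096, and 0.10 with the block. Leaving out VP2.11 gave -1.53 (limma adjusted p 0.019, and 0.017 with the block), leaving out VP1.6 gave -0.34 (0.50 and 0.59), and weighting the libraries gave -1.48 (limma adjusted p 0.0027). Some 3.98% of its 75-base stretches occur on the other strand in Cir1 or Gm2810.

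Meis2 (ENSMUSG00000027210, chr2:115863064-116065839, minus strand), which encodes a homeodomain cofactor of the TALE class, was the most abundant of the 10 and had the smallest fold change. It stood at 113.7, 166, 139 and 111 CPM in TRAP and 261, 199.9, 223 and 231 CPM in INPUT. The fractions did not overlap, and the gap was narrowest in VP2.2. This gave a log2 fold change of -0.80 ± 0.16 (SE, n = 4), or 1.74-fold lower, with a limma adjusted p of 0.0022, and 0.014 with the block. The fit with the block did not call it without VP1.6 (-0.67, limma adjusted p 0.11) or without VP2.11 (-0.72, 0.067).

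Per kilobase of exon, the order of the factors was alike at the top in both fractions, with Meis2, Dlx5, Lhx6, Isl1 and Six3 in that order by mean log2 level. In INPUT these 5 stood at 19.0 ± 2.107, 17.3 ± 4.35, 14.3 ± 2.90, 10.5 ± 1.64 and 8.53 ± 2.14 CPM per kb (SD, n = 4), followed by Dlx6 at 4.42 ± 2.29, Sp9 at 2.91 ± 1.104, Dlx1 at 2.38 ± 0.395, Dlx2 at 1.404 ± 0.396 and Nkx2-1 at 1.07 ± 0.270. Meis2 was above Dlx5 in 2 of 4 INPUT libraries, so these 2 did not differ beyond their spread, while each of the other neighbors kept its order in 4 of 4. In TRAP, Meis2 stood at 11.0 ± 2.107 CPM per kb, and Dlx5, Lhx6, Isl1 and Six3 at 5.33 ± 1.83, 4.60 ± 2.21, 3.23 ± 1.12 and 2.29 ± 0.968. The other 5 were at 0.587 to 1.69 CPM per kb, and Dlx6, the sixth in INPUT, came last by mean log2 level. Its 0.0309 CPM in VP1.6 drew that level down. By mean CPM per kb Dlx6 (0.826) stood above Dlx2 (0.707) and Nkx2-1 (0.587). Meis2 was above Dlx5 in all 4 TRAP libraries, whereas Dlx5 and Lhx6, Nkx2-1 and Dlx2, and Dlx2 and Dlx6 each kept their order in 2 of 4, and the remaining neighbors in 3 or 4.

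The pools fell into a pair with large and a pair with small differences, a grouping seen in the values and not tested. The median TRAP minus INPUT difference of the 10 factors was -2.33 log2 in VP1.6 and -2.32 in VP2.6, but -0.67 in VP2.2 and -0.85 in VP2.11, and 10 of the 10 factors were lower in TRAP in each pool except VP2.11, where 8 were. Over all genes tested the median stayed between -0.04 and -0.01 in the 4 pools, and 50.33% to 51.78% of genes were lower. Meis2 did not follow this grouping, with differences of -1.20 and -0.69 in VP1.6 and VP2.6 and of -0.27 and -1.05 in VP2.2 and VP2.11, while Lhx6 and Isl1 in VP2.11 stood at -1.80 and -1.42. The summed medium spiny neuron markers moved with the grouping, at -1.95 and -1.76 log2 in VP1.6 and VP2.6 and -1.09 and -0.99 in VP2.2 and VP2.11, as did the astrocyte markers (-1.74 and -1.49 against -0.62 and -1.20) and the microglia markers (-2.48 and -2.11 against -1.94 and -1.55), but the oligodendrocyte markers did not (-1.68 and -1.74 against -1.22 and -2.06). Slc17a6 was higher in TRAP by 2.78 and 2.40 log2 in VP1.6 and VP2.6 and by 3.17 and 1.84 in VP2.2 and VP2.11. The part of these markers in the grouping was not tested.

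**Figure D3:**
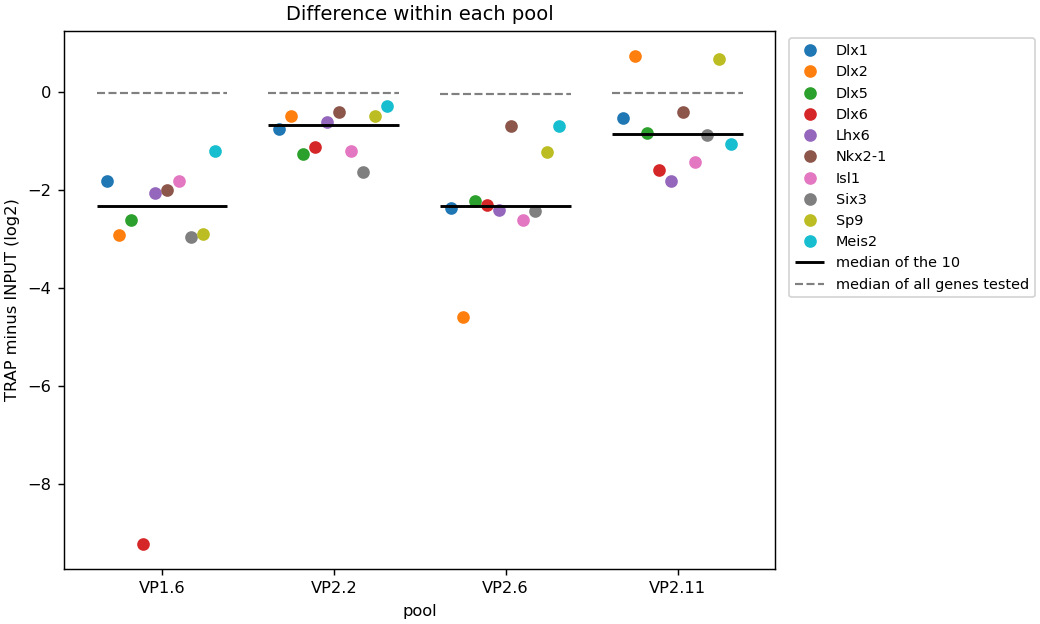
TRAP minus INPUT difference (y axis, log2) of each of the 10 factors (colored points) in each pool (x axis), with the median of the 10 (solid line) and of all genes tested (dashed line). The solid lines lie at -2.33, -0.67, -2.32 and -0.85 while the dashed lines stay near 0, and Dlx2 and Sp9 are the 2 points above 0, both in VP2.11.

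The genes of the GABA phenotype did not move as a group. Slc32a1, which encodes the vesicular GABA transporter vGAT, was the only one of 5 that was called lower in both fits, with a log2 fold change of -1.26 (limma adjusted p 0.0027, and 0.0055 with the block; without VP1.6 and with the block, -0.92 and 0.058). Gad1 and Gad2, the enzymes of GABA synthesis, and Abat, which breaks GABA down, had log2 fold changes of 0.30, -0.05 and 0.47, and were not called. In pool order, Gad1 differed by -0.30, 1.66, -0.03 and -0.12 log2 and Gad2 by -0.88, 1.29, -0.32 and -0.29. Abat differed by 0.13, 1.69, -0.15 and 0.22, so VP2.2 drew each of these means up. Setting each factor beside Gad1 within the same library removes any effect of the scaling between libraries. Relative to Gad1, the 10 factors differed between TRAP and INPUT by -3.86 (Dlx6) to -1.10 log2 (Meis2), and 8 of 10, again without Dlx2 and Sp9, had all TRAP libraries below all INPUT libraries (exact permutation p = 0.029 each, 0.058 when adjusted over the 20 comparisons), where 23.5% of all genes did. With the pools kept as pairs, the exact sign-flip p was 0.125 for each of the 8, the smallest that 4 pools allow. Leaving out a pool can only keep or raise such a count, so it cannot show how firm the count is. The count was then 8 to 10, 10 without VP2.11, the pool in which Dlx2 and Sp9 rose. Relative to Gad2 the count was also 8, with 13.1% of all genes. Since Gad1 and Gad2 both rose in VP2.2, the ratios to either are lowered in that pool by the reference itself. The count with Gad2 is therefore not separate from that with Gad1.

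Relative to Slc32a1, the differences ran from -2.30 (Dlx6) to 0.46 log2 (Meis2), and only Dlx6 had all TRAP libraries below all INPUT libraries, where 2.53% of all genes did. Nkx2-1 and Meis2 were higher relative to Slc32a1 in 4 of 4 pools, by 0.38 and 0.46 log2 on average (exact permutation p = 0.029 and 0.057, adjusted 0.058 and 0.10; exact paired sign-flip p = 0.125 each). So were 57.8% of all genes, and the median over all genes relative to Slc32a1 was 1.21 log2, above both factors. For Dlx1, Dlx2, Dlx5, Lhx6, Isl1, Six3 and Sp9 the mean differences were -0.10, -0.55, -0.47, -0.46, -0.49, -0.71 and 0.28, and each changed sign between pools. Without VP1.6 or without VP2.11, 3 factors in place of 1 had all TRAP libraries below all INPUT libraries relative to Slc32a1. This count, too, cannot fall when a pool is left out.

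**Figure D4:**
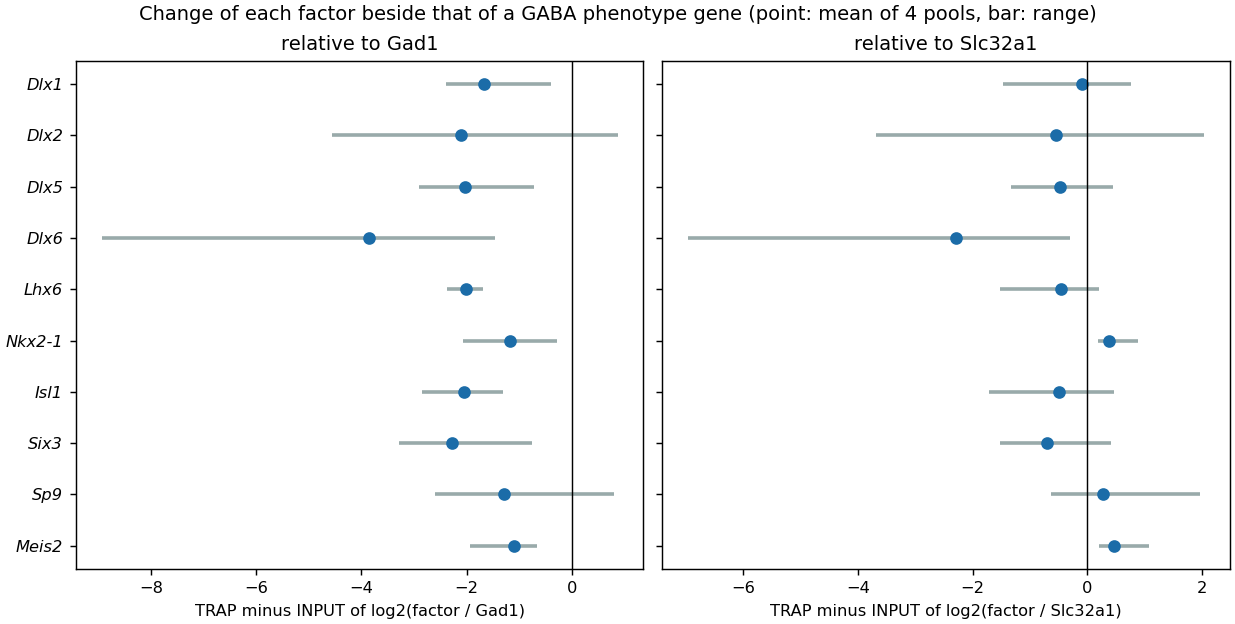
TRAP minus INPUT difference (x axis, log2) of each factor's level divided by that of Gad1 (left) or Slc32a1 (right) in the same library; points are means of 4 pools and bars run from the lowest to the highest pool. On the left 8 bars lie wholly below 0, and on the right 1 bar (Dlx6) lies wholly below 0 and 2 (Nkx2-1 and Meis2) wholly above it.

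Other transcription factors of the subpallium were called in both directions. Of 47 listed, 41 had a row, and 14 were called lower and 3 higher with the fraction alone, where 24.8% and 23.2% of all genes were called lower and higher; with the block the counts were 10 and 3, beside 16.8% and 15.4%. The median log2 fold change of the 41 was -0.20. Leaving out VP1.6 or VP2.6 brought the 14 down to 8 with the fraction alone.

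Among 10 medial eminence and pallidal factors, 3 were lower and 0 higher in both fits, where 24.8% of all genes, and 16.8% with the block, were called lower. Lhx8, a LIM homeodomain factor of cholinergic neurons, had a log2 fold change of -2.09 (limma adjusted p 0.0036, and 0.0024 with the block). Gbx1, a homeobox gene of the medial eminence, was at -1.61 (0.0023 and 0.0096) and Sox6, which acts downstream of Lhx6, at -1.28 (0.028 and 0.023). Sox6 lost its call in both fits without VP1.6 (-0.93) or VP2.11 (-0.98), and with the fraction alone without VP2.6 (-1.38), and Gbx1 in the fit with the block without VP1.6 (-1.31). Satb1, Npas1, Etv1 and Zic1, further factors of this list, were not called, with log2 fold changes of 0.49, -0.08, 0.06 and -0.29.

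Among 16 lateral eminence and striatal factors, 7 were lower and 1 higher, and 4 and 1 with the block. Of all genes, 24.8% were called lower and 23.2% higher, and 16.8% and 15.4% with the block. Rxrg and Rarb, retinoid receptors of striatal neurons, were at -1.98 and -1.44 log2 (limma adjusted p 0.00017 and 0.00044), Tshz1, a zinc finger gene of striatal cells, at -1.31 (0.00052), and Ikzf1, which is also a factor of blood and immune cells, at -3.88 (0.0020), from 0.169 CPM in TRAP and 2.00 CPM in INPUT. Foxp4, a forkhead gene, rose by 1.48 (0.00088). Ikzf1 was over 1 CPM in 0 of 4 TRAP libraries and so was tested only through its INPUT values. All 5 kept their calls with the block (3.3e-05, 0.00075, 0.0012, 0.013 and 0.0042), and Ikzf1 lost it without VP2.2 (adjusted p 0.069). Foxp1 and Bcl11b, factors of medium spiny neurons, and Ebf1 were called only with the fraction alone, at -0.67, -0.53 and -0.69.

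Of 10 progenitor and shared factors, 3 were lower and 1 higher, and 2 and 1 with the block. The shares of all genes were 24.8% lower and 23.2% higher, and 16.8% and 15.4% with the block. Sox2, which marks neural stem cells and, in the adult, glia, was at -2.06 log2 (limma adjusted p 0.012, and 0.0047 with the block), and without VP1.6 or VP2.6 it was not called with the fraction alone (-1.47 and -1.71). Sp8, the relative of Sp9, was at -1.76 (0.0019 and 0.0053), and Peg3, an imprinted gene, rose by 1.50 (0.00033 and 0.00048). Of 5 caudal eminence factors, Nr2e1, a nuclear receptor of stem cells and astrocytes, fell by 2.32 (0.0014 and 0.0029) and Nr2f2, also known as COUP-TFII, rose by 0.93 (0.00080 and 0.0046). Nr2f1, Prox1 and Npas3 were at 0.12, 0.52 and 0.72 and were not called.

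The partners of these factors had median log2 fold changes of -0.77 (TALE) and -0.41 (LIM cofactors). Of the 8 TALE homeodomain partners, 4 were lower and 1 higher, and 3 and 0 with the block, where 24.8% and 16.8% of all genes were called lower. Meis1 and Meis3, paralogs of Meis2, were at -1.09 and -0.93 log2 (limma adjusted p 0.00059 and 0.0012, and 0.0049 and 0.019 with the block), and Pbx3, which binds DNA together with Meis proteins, at -0.73 (0.0014 and 0.021). The fit with the block did not call Meis3 or Pbx3 without VP1.6 (-1.01 and -0.64) or without VP2.6 (-0.94 and -0.69). Of 9 cofactors of LIM homeodomain proteins, 2 were lower in both fits, a share near that of all genes. They were Lmo4 and Lmo2, at -1.13 (0.00031 and 0.0014) and -1.51 (0.0081 and 0.0071), and Ldb1, the bridging cofactor of Lhx6 and Isl1, was at 0.06. Lmo2 was not called without VP1.6 in the fit with the fraction alone (-1.44, limma adjusted p 0.056), nor without VP2.6 in the fit with the block (-1.04, 0.058).

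Pallial factors moved the opposite way. Of 13 listed, 12 had a row, 11 were called higher and 0 lower in both fits, and the median log2 fold change was 2.25. With the fraction alone and with the block, 23.2% and 15.4% of all genes were called higher. Tbr1, Neurod1, Emx1, Neurod6 and Eomes were at 3.16, 2.84, 2.58, 2.49 and 2.40 (limma adjusted p 7.7e-05, 0.00012, 0.010, 9.9e-05 and 0.00095). Emx1 and Eomes were over 1 CPM in 0 and 1 of the 4 INPUT libraries and so were tested only through their TRAP values, and 9 pallial factors were called where more than 1 CPM was required in all 8 libraries. Emx1 lost its call with the block without VP1.6 (2.10) or VP2.11 (2.09). The lowest of the 12 was Lhx2 at 0.32, which was not called, and the 10 subpallial factors ran from -3.55 to -0.80, so that the 2 sets did not overlap. Both sets were chosen with earlier results of these data known, so this split is no independent result. Of the 41 other subpallial factors, 16 had a positive log2 fold change, up to 1.50 (Peg3), and 25 a negative one.

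**Figure D5:**
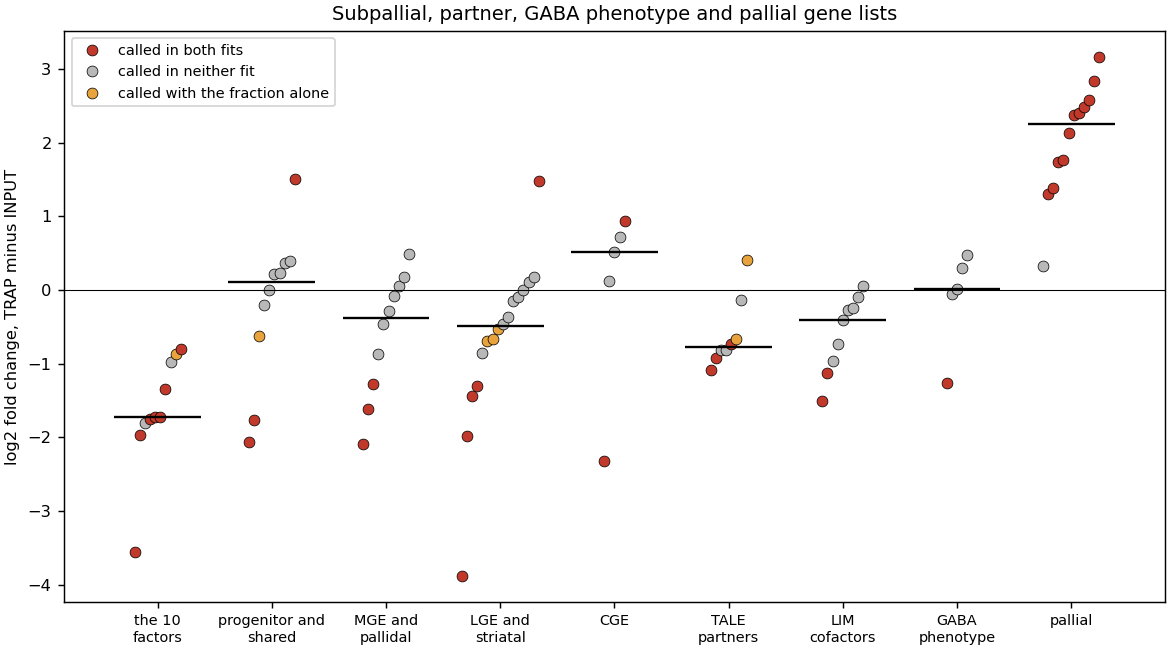
Log2 fold change (y axis, TRAP minus INPUT) of each gene with a row in the 10 factors and in 8 other lists (x axis; MGE, LGE and CGE are the medial, lateral and caudal ganglionic eminences), with each list's median as a bar; red points were called in both limma fits, orange with the fraction alone and gray in neither. The median of the 10 factors is -1.72, that of the pallial list 2.25, and the other lists have medians between -0.77 and 0.52.

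Over the 8 libraries, the gene whose log2 profile was most like the mean of the 4 Dlx genes was Cd33, with a Pearson r of 0.995, followed by Dnase2a (0.990), Trim59 (0.987), Olig1 (0.986) and Cd300c2 (0.985), and 81 of 14239 genes were over 0.95. Cd33 and Cd300c2 are receptors of myeloid cells, with low means of 0.324 and 0.473 CPM in TRAP, and Olig1 is a factor of the oligodendrocyte lineage. The r of Dlx1, Dlx2, Dlx5 and Dlx6 to the mean of the other Dlx genes was 0.887, 0.767, 0.915 and 0.727. The Dlx genes thus did not all share the mean profile closely. The 8 values are 2 fractions of 4 pools and are not independent, and the mean Dlx profile is drawn down in TRAP VP1.6 by Dlx6, so these values are a description of the libraries.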

How the data were processed

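The study sequenced 75-base single reads from TRAP and INPUT RNA. Per its methods, the authors ran STAR 2.5.1a against Ensembl's GRCm38, took unique reads with featureCounts, scaled by TMM size factors and fitted limma with a weight for each library. The value the authors deposited for a gene in a library is its log2 CPM, and whether counting used strand is not given in the sources used here. The table also holds the authors' own fold changes and p-values, which were not used. The values hold no total counts, and the depth of each library was not derived here, so that counting error is unknown and a value under 1 CPM may rest on few reads.

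Of 14398 entries, 45 repeated a gene, which left 14353. The 14249 genes above 1 CPM in 3 or more libraries were fitted with limma 3.58.1 in R 4.3.3 (lmFit, eBayes with a trend), with the fraction alone and no library weights, and again with the pool as a block. p-values were adjusted by Benjamini-Hochberg and rest on the spread between the libraries of these pools, drawn toward that of other genes by eBayes. By the labels and methods, the TRAP and INPUT of a pool come from 1 homogenate, and so form a pair. Deviations from the fraction means were opposed between the 2 libraries of a pool (r -0.745 to -0.495 across genes) but not between pools (0.0457 to 0.441), so both fits are printed for each of the 10 genes. Ratios within a library were compared by an exact two-sided permutation test and, within pools, by an exact sign-flip test.

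The 10 genes and all lists were chosen with earlier results of these data known. All 10 genes were named, and of each list every gene called with the block, up to 5 by absolute log2 fold change, besides the noncoding RNAs with a row and the 5 genes most like the mean Dlx profile. Other list genes given with values (Satb1, Foxp1, Ldb1, Lhx2 and the like) were chosen after their values were seen. Gene positions, exon lengths and sequences came from GENCODE M21 (GRCm38), matched by gene identifier. Alternatives were other filters, scalings, library weights, a length correction, a fold threshold and leaving out each pool. Some list genes are not reported here.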

Additional observations from a re-analysis of the deposited data

Results flagged for a closer look

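In INPUT, Dlx6 stood at 4.22 log2 CPM in VP1.6, while the other 3 INPUT libraries lay between 2.87 and 3.02. It was the only one of 20 groups of 4 values (10 genes in 2 fractions) in which 1 library stood this far from the others by Dixon's ratio, and chance gives about 1.0 in 20. The TRAP library of the same pool held the lowest Dlx6 value, -5.01 log2 CPM, while the other TRAP libraries lay between 0.69 and 1.91. This gap is wider than that in INPUT but was not flagged, since Dixon's ratio divides a gap by the range of its group.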

How the results depend on the processing

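The 10 genes gave 178 values under the alternatives, of which 150 stayed on the same side of the threshold, 20 lost their call, 8 gained one and 0 changed direction. Over all named genes, 0 of 641 values changed direction. Adding the block or changing the filter leaves a gene's log2 fold change as it was, so its direction could not change there. Most list genes counted were also named for large called changes, so these counts say little about how firm the directions are. With the fraction alone, 3530 genes were lower and 3300 higher in TRAP. With the pool as a replicate block, 2393 were lower and 2199 higher, and with a length trend removed as well, 1915 and 1773. A threshold of 1 on the absolute log2 fold change left 2107 and 1421. Leaving out a pool gave 2453 to 3619 lower and 2398 to 3275 higher with the fraction alone, and, with the block, 1673, 2037, 1719 and 2235 lower and 1559, 2119, 1531 and 1867 higher without VP1.6, VP2.2, VP2.6, VP2.11 in turn. The 8 factors called lower became 5 to 9 over the fits that left out a pool, 5 being the fit with the block and without VP1.6, and 10 with library weights, which called 4578 genes lower (9 and 3191 with the block). Of the other subpallial factors, 8 to 15 were lower and 3 to 5 higher when a pool was left out, the extremes of 8 without VP1.6 or VP2.6 and of 5 without VP2.6, against 14 and 3. The count of factors lower relative to Slc32a1, 1 with all pools, was 1 to 3, and leaving out a pool cannot lower it. Beside the calls given with the results above, the paired fit changed no call of the 10 factors other than that of Nkx2-1. Dlx2 and Dlx6 were not tested where more than 1 CPM was required in all 8 libraries. Counting error is unknown without total counts, which limits the values near 1 CPM, those of Dlx2, Dlx6 and Nkx2-1 in TRAP above all.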
